A study of Mus musculus with 7 samples.

Results

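The Kruppel-like factors described here were 10 genes, Klf2, Klf3, Klf4, Klf5, Klf6, Klf7, Klf9, Klf10, Klf13 and Klf15, taken by their gene symbols from the 24346 genes of the deposited expression table. All 10 passed the filter on low values, a mean of at least 0.5 FPKM over the libraries, as did 14151 genes in all. FPKM is the number of sequenced fragments scaled to transcript length and to the mapped fragments of the library, so that levels can be compared between genes. RNA came from primary neurospheres, which are free-floating balls of neural stem and progenitor cells, grown for 8 days with FGF and EGF from the hippocampus of single C57/BL6 mice aged 2 months. The 3 Med23 CKO libraries (KO_117, KO_214 and KO_218) came from Nestin-CreER:Med23 flox/flox mice, in which tamoxifen turns on Cre recombinase in cells with an active Nestin promoter and exons 5 to 7 of Med23, a subunit of the Mediator complex, are removed. The 4 control libraries (WT_215, WT_116, WT_213 and WT_220) carry the label wild type, and the study's methods describe controls as littermates of other genotypes, Med23 flox/+ and Med23 flox/flox. Tamoxifen was given by mouth to both groups, on 5 days at 200 mg/kg a day, at 1 month of age for cultures by the study's methods and at 2 months by the labels. Controls without Cre do not show what Cre itself does, and a culture can hold cells in which Med23 was not deleted.

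Kruppel-like factors are transcription factors that bind GC-rich and CACCC sequences through C2H2 zinc fingers at the end of the protein, a fold they share with the Sp factors. The regions in front of the fingers differ: Klf9, Klf10 and Klf13 recruit the corepressor Sin3A, Klf3 recruits the corepressor CtBP, and Klf2, Klf4, Klf5, Klf6 and Klf7 act largely as activators. Several are switched on within minutes to hours of a growth factor, hormone or TGF-beta signal, and in the nervous system members of the family are known for effects on stem cell identity, axon growth and neuron maturation.

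The stem cell label held at the level of markers, since Nes ranged from 61.1 to 240.5 FPKM and Sox2 from 69.4 to 194 FPKM over the 7 libraries. The libraries were not alike in their other markers. KO_214 had the highest summed FPKM of the listed markers of endothelial cells (147, against 7.93 to 85.8 elsewhere), of microglia and macrophages (1115, against 39.0 to 248.6) and of mural cells and fibroblasts (510, against 10.5 to 122). In bulk RNA, fewer cells of a type and less RNA per cell cannot be told apart. Med23 itself was measured at 11.4, 10.3, 12.9 and 10.1 FPKM in the controls and at 9.97, 9.27 and 8.12 FPKM in Med23 CKO libraries, all of them below the controls. The margin was narrow, with KO_117 at 9.97 FPKM and control WT_220 at 10.1 FPKM. Of the 14151 genes tested, 1.53% were likewise lower with no overlap between groups. The difference of Med23 was -0.26 ± 0.18 in log2(FPKM + 1) (SE, limma unadjusted p = 0.175, exact permutation p = 0.0571). Its 95% interval, from -0.68 to 0.15, spanned 0. The value covers the whole gene, undeleted exons included.

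Promoter sequence in front of the RefSeq start (GRCm38.p6) was found for 8 of the 10 members, all but Klf5 and Klf10. In windows of 250 bases, GC content of the members ran from 59.2% to 78.4%, against a median of 52.4% over 32851 windows. By GENCODE coordinates the Klf7 window lay wholly inside the gene, and the windows of Klf2, Klf3 and Klf6 reached past the gene start. Motif counts of these windows thus include transcribed sequence. The GC box GGGCGG, a site of Sp and Kruppel-like factors, was found on either strand in 7 of 8 members and in 32.7% of all windows, and the CACCC box CCACCC in 4 of 8 members and 28.1% of windows, with overlaps between both motifs allowed. The CRE letters TGACGTCA (1.55% of windows), the CArG box (1.47%) and the TATA box letters TATAAA (12.4%) were in 0 of the 8. The MEF2 site, the sequence through which ERK5 signaling is known to switch on Klf2, was in the Klf2 window alone of the 8 and in 0.508% of all windows. These matches describe letters and are not tests of binding. The promoters of Klf2, Klf4 and Klf9 are printed as examples of how the members differ, Klf2 for the MEF2 site, Klf4 for several GC boxes and Klf9 as the member without one, with GC boxes and the MEF2 site in capitals. The Klf2 sequence is cut at the GENCODE start, which leaves out the end of its window with the CACCC box. Klf2 is at chr8:72318812-72319032 on the forward strand (221 bases, 2 GC boxes and then the MEF2 site), Klf4 at chr4:55532476-55532725 on the reverse strand (250 bases, 4 GC boxes of which the first 2 overlap) and Klf9 at chr19:23140976-23141225 on the forward strand (250 bases, no match).
Klf2: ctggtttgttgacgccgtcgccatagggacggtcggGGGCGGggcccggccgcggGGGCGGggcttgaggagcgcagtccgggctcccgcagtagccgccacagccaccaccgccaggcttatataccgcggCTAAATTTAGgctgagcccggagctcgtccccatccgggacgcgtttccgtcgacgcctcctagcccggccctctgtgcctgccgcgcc
Klf4: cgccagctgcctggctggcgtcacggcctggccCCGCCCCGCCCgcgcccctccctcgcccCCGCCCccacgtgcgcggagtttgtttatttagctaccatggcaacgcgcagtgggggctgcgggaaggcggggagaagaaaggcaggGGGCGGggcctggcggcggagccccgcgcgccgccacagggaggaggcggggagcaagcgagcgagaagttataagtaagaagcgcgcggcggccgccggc
Klf9: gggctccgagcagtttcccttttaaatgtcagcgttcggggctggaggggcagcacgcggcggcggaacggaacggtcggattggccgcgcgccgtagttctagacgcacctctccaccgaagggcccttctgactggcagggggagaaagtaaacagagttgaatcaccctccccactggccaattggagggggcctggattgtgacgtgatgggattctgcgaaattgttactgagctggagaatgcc

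By control mean the members ran from Klf10 (50.6 FPKM) through Klf3 (37.2), Klf6 (33.7), Klf9 (22.5), Klf13 (16.2), Klf7 (9.87), Klf4 (5.33), Klf15 (4.82) and Klf2 (1.23) to Klf5 (1.13 FPKM). Klf10 stood at the 87.4th percentile of the genes tested and Klf5 at the 9.44th. Not every step in that order was larger than the spread between libraries. Klf10 was above Klf3 in 2 of 7 libraries, Klf3 above Klf6 in 3, Klf4 above Klf15 in 1 and Klf2 above Klf5 in 5. Klf6 was above Klf9, Klf7 above Klf4 and Klf15 above Klf2 in all 7, whereas Klf9 over Klf13 and Klf13 over Klf7 held in 6. The most abundant member also changed from library to library: it was Klf10 in WT_215 and WT_220, Klf3 in KO_117 and Klf6 in the other 4.

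**Figure D1:**
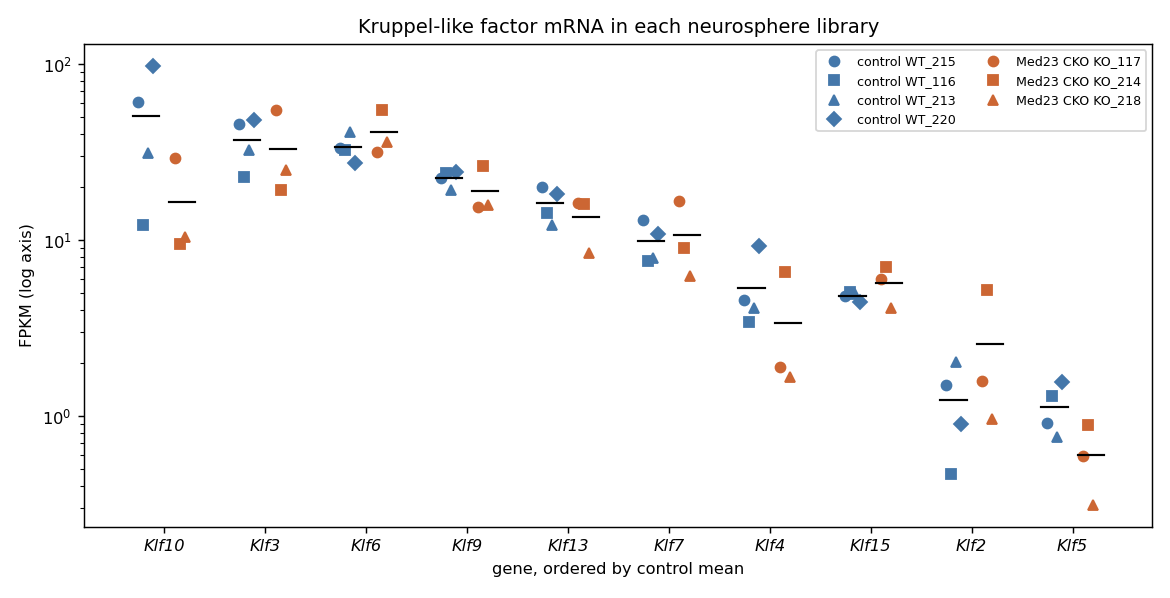
FPKM (log axis) of each of the 10 members in each of the 7 libraries, ordered by control mean, with control libraries in blue, Med23 CKO libraries in orange and black bars at the group means. The groups overlap for every member, and Klf2 and Klf10 spread the widest, from 0.469 to 5.20 FPKM and from 9.55 to 97.7 FPKM.

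The comparison of Med23 CKO with control asks whether loss of this Mediator subunit alters transcription in the stem cell cultures. None of the 10 members differed between the groups beyond the spread between libraries. By limma on log2(FPKM + 1), 0 of 10 had an adjusted p under 0.05 (background 0% of the 14151 genes tested) and 0 of 10 an unadjusted p under 0.05 (background 1.5%). The groups overlapped for all 10 (groups did not overlap for 2.32% of genes tested), and the lowest exact permutation p was 0.114 where 0.0286 was the smallest possible. The Med23 CKO mean was above the control mean for 4 members and below it for 6. Of the 14151 genes tested, it was above for 6196 and below for 7955. The median difference was -0.25 on the log2 scale for the members, against -0.03 over all genes tested. Adjusted p-values were 1 for each member. The intervals below show what size of change these libraries leave possible.

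Klf10, also called TIEG1, is an early gene of TGF-beta signaling that recruits Sin3A (chromosome 15, 38291463 to 38300706, reverse strand). It was measured at 61.3, 12.2, 31.3 and 97.7 FPKM in controls WT_215, WT_116, WT_213 and WT_220, and at 29.4, 9.55 and 10.4 FPKM in KO_117, KO_214 and KO_218. The high values were all in control libraries, but control WT_116 lay below KO_117 and near KO_214 and KO_218. The mean was 50.6 ± 37.4 FPKM in controls (SD, n = 4) and 16.5 ± 11.2 FPKM in Med23 CKO (SD, n = 3). The difference of -1.38 ± 0.71 (SE) in log2(FPKM + 1) was the largest in size of the 10, with a 95% interval from -3.04 to 0.27 (limma unadjusted p = 0.089, exact permutation p = 0.114). Its spread within groups was at the 94.2nd percentile of the genes tested.

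Klf9, which is induced by glucocorticoid and thyroid hormone and is known for a role in the maturation of dentate granule neurons, recruits Sin3A as well (chromosome 19, 23141226 to 23168134, forward strand). It was at 22.5, 24.1, 19.2 and 24.3 FPKM in controls and at 15.4, 26.3 and 15.8 FPKM in KO_117, KO_214 and KO_218. The last group was split, with KO_214 the highest of the 7 and the other two the lowest. The difference was -0.26 ± 0.23 (95% interval -0.79 to 0.27, exact permutation p = 0.286). Klf13, the third of this subgroup and an activator of the chemokine gene Ccl5 in T cells (chromosome 7, 63886351 to 63938915, reverse strand), was at 20.2, 14.3, 12.2 and 18.2 FPKM in controls and 16.3, 16.1 and 8.48 FPKM in Med23 CKO. Only KO_218 lay below the control range, and the difference was -0.27 ± 0.29 (95% interval -0.93 to 0.40, exact permutation p = 0.486).

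Klf3, the CtBP-recruiting repressor (chromosome 5, 64803388 to 64832901, forward strand), was at 45.6, 22.8, 32.3 and 48.3 FPKM in controls and at 55.1, 19.3 and 24.9 FPKM in Med23 CKO. KO_117 was the highest of the 7 libraries and KO_214 the lowest, so the Med23 CKO group spanned the controls. The difference was -0.25 ± 0.41 (95% interval -1.19 to 0.70, exact permutation p = 0.629). Exons of Klf3 overlap the antisense gene Gm20033 and those of Klf7 overlap Gm26649 and Gm13748. Whether counting used strand was not given in the sources used here, so reads of these overlaps cannot be told apart.

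Among the activators, Klf2 and Klf4 are close relatives that act together in endothelial cells, where blood flow raises both, and Klf4 is also a reprogramming factor for pluripotency. Klf2 (chromosome 8, 72319033 to 72321656, forward strand) was at 1.5, 0.469, 2.04 and 0.904 FPKM in controls and at 1.59, 5.20 and 0.968 FPKM in Med23 CKO. KO_214 alone lay above the control range. The difference of 0.56 ± 0.44 (95% interval -0.47 to 1.58, exact permutation p = 0.314) was 0.07 ± 0.34 without KO_214. Klf4 (chromosome 4, 55527143 to 55532466, reverse strand) was at 4.58, 3.41, 4.13 and 9.21 FPKM in controls and at 1.91, 6.57 and 1.67 FPKM in Med23 CKO. KO_117 and KO_218 were below every control, and KO_214 was above all controls but WT_220. The difference was -0.62 ± 0.45 (95% interval -1.67 to 0.43, exact permutation p = 0.229).

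Klf5, a growth-promoting factor of epithelia and smooth muscle (chromosome 14, 99298691 to 99315036, forward strand), was the lowest member, at 0.915, 1.30, 0.760 and 1.55 FPKM in controls and 0.591, 0.891 and 0.314 FPKM in Med23 CKO. KO_117 and KO_218 were again the lowest libraries, with KO_214 inside the control range, and the difference was -0.42 ± 0.23 (95% interval -0.95 to 0.12, exact permutation p = 0.114). At levels this low the pseudocount of 1 shrinks a difference: with 0.1 in its place it was -0.86 ± 0.47. On the FPKM scale the control mean was 1.13 ± 0.361 FPKM against 0.599 ± 0.289 FPKM (SD, n = 4 and n = 3).

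Klf6 and Klf7 form a further pair of activators, of which Klf6 is induced early after injury in many tissues and Klf7 is known for its part in the growth of axons. Klf6 (chromosome 13, 5861482 to 5870394, forward strand) was at 33.3, 32.6, 41.2 and 27.6 FPKM in controls and at 31.8, 55.0 and 36.1 FPKM in Med23 CKO. KO_214 was the highest and the other Med23 CKO libraries lay inside the control range. The difference of 0.25 ± 0.23 (95% interval -0.30 to 0.80, exact permutation p = 0.371) was 0.02 without KO_214. Klf7 (chromosome 1, 64029447 to 64122282, reverse strand) was at 13, 7.61, 7.95 and 10.9 FPKM in controls and at 16.6, 9.05 and 6.28 FPKM in Med23 CKO. As for Klf3, the Med23 CKO group held a value above and a value below every control, with a difference of 0.03 ± 0.34 (95% interval -0.76 to 0.82, exact permutation p = 0.914).

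Klf15, a glucocorticoid-induced regulator of amino acid and glucose metabolism (chromosome 6, 90462576 to 90475238, forward strand), was at 4.85, 5.06, 4.92 and 4.46 FPKM in controls and at 6.04, 7.08 and 4.13 FPKM in Med23 CKO. The controls were close together, with an SD of 0.257 FPKM, and Med23 CKO libraries lay on both sides of them. The difference was 0.19 ± 0.21 (95% interval -0.31 to 0.69, exact permutation p = 0.314). Klf15 had the smallest spread within groups of the 10, at the 20.5th percentile of the genes tested.

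**Figure D2:**
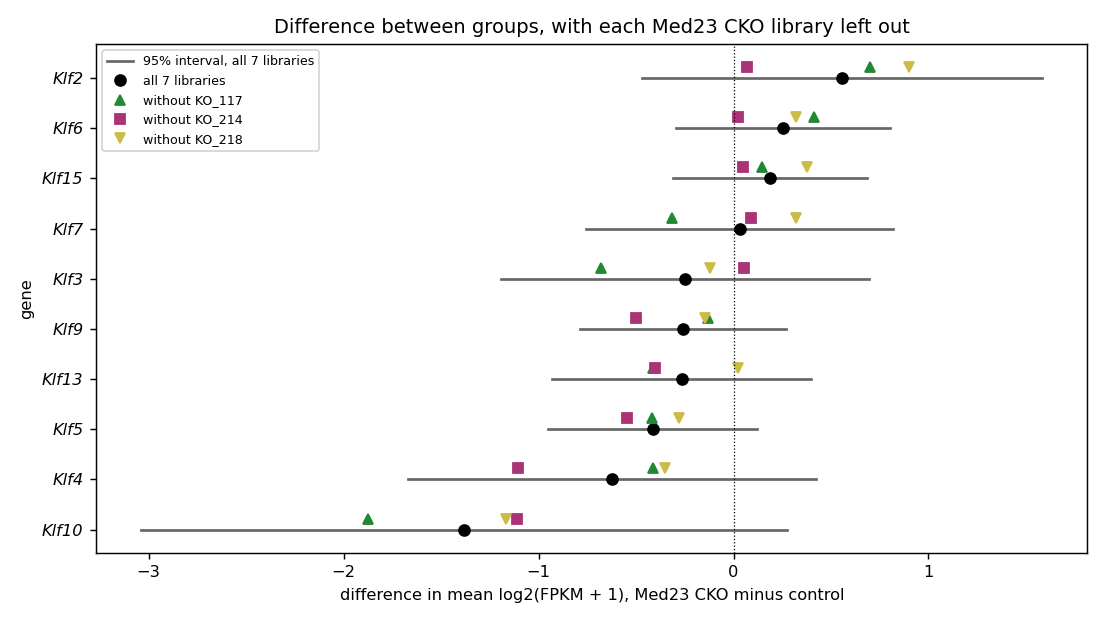
Difference in mean log2(FPKM + 1) between Med23 CKO and control for each member (black points, all 7 libraries, lines the 95% intervals), and with each Med23 CKO library left out (triangles and squares). Every interval spans 0, and leaving out KO_214 moved Klf2 and Klf6 to 0.07 and 0.02 and Klf4 to -1.10.

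The Med23 CKO libraries did not move together, and leaving out 1 of them changed which members overlapped with the controls. Without KO_214, Klf4, Klf5 and Klf9 lay below every control, 3 of 10 members (background 5.61% of genes tested below), and Klf4 (-1.10 ± 0.36, limma unadjusted p = 0.021) and Klf9 (-0.50 ± 0.18, limma unadjusted p = 0.0323) had an unadjusted p under 0.05 (background 1.45% lower). Without KO_117, Klf10 lay below every control (1 of 10, background 12.2%), at -1.87 (limma unadjusted p = 0.0388, background 2.9% lower at an unadjusted p under 0.05). Without KO_218, Klf15 lay above every control (1 of 10, background 3.82%). Klf10 was also at -1.92 without the control WT_116 (limma unadjusted p = 0.0117, background 1.43% lower), but at -0.95 without WT_220 (limma unadjusted p = 0.197), -1.11 without KO_214 and -1.17 without WT_215 or KO_218. Klf4 was at -0.35 without KO_218 (limma unadjusted p = 0.51), -0.37 without WT_220 and -0.41 without KO_117. Klf15 was at 0.05 without KO_214 and at 0.37 without KO_218. The adjusted p stayed at 0.596 or more for every member in each of these fits. With all libraries weighted by their own spread (limma array weights), Klf4, Klf5, Klf10 and Klf13 were lower at an unadjusted p under 0.05, 4 of 10 members (background 6.27%). Over the 7 libraries, KO_218 held the lowest value for 5 of 10 members (23.8% of genes tested were lowest there) and KO_214 the highest for 4 of 10 (25.4%). KO_218 also had the lowest median over all genes tested, 3.38 in log2(FPKM + 1) against 3.48 to 3.61 in the other libraries. Median centring and quantile normalization turned the direction of none of the members. Leaving out KO_218 turned that of Klf13 alone, to 0.021. The part of KO_218 in the members' values was not tested further.

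Some libraries at the extremes for members were also at the extremes for markers of other cell types. Klf2, Klf6, Klf9 and Klf15 peaked in KO_214, the library with the highest sums for endothelial, microglial and mural markers. At the other end, Klf3 and Klf7 were highest in KO_117, where these sums were lowest (7.93 FPKM endothelial, 10.5 FPKM mural), or nearly so (41.6 FPKM microglial, above WT_220 alone). KO_117 thus held the highest value of 2 of 10 members (23.6% of genes tested) and KO_214 that of 4 (25.4%). Control WT_220 held that of 3, Klf4, Klf5 and Klf10 (15.1%). Its sums were low, at 12.1 FPKM endothelial, 39.0 FPKM microglial and 14.8 FPKM mural. KO_218, lowest for 5 of 10 members (23.8%), had all of these sums inside the control range. Lowest values were in KO_117 for Klf9 (20.6% of genes tested) and in KO_214 for Klf3 and Klf10 (18.7%). Marker sums of neuroblasts and neurons were highest in KO_117 (180 FPKM) and lowest in KO_214 (60.2 FPKM). Those of neural stem cells stood at 3891 FPKM in KO_117 and 2076 FPKM in KO_214, both inside the control range of 1901 to 3895 FPKM. Single stem cell markers went both ways between KO_117 and KO_214, with Nes at 240 and 61.1 FPKM but Gfap at 19.4 and 321 FPKM. Single neuronal markers did not all follow their sum, of which Map2 gave 147 FPKM in KO_117. Map2, Dcx and Tubb3 were highest in KO_117, but Neurod1 (0.119 FPKM) and Stmn2 (0.606 FPKM) were lowest there. In KO_214 Map2 and Dcx were lowest, but Tubb3 (24.5 FPKM) was below KO_117 alone. Of the markers, 11 of 12 endothelial, 12 of 13 microglial and 9 of 9 mural genes passed the filter, and each that passed had a higher mean in Med23 CKO, with median differences of 0.51, 0.86 and 0.59. That direction rested on KO_214, without which 9 of 11, 10 of 12 and 8 of 9 had a lower mean, with medians of -0.16, -0.17 and -0.36. Of all listed for these types, Slco1a4 alone was at 0 in a library (KO_117). Of 11 neural stem cell markers, 9 had a lower mean in Med23 CKO (median -0.34, and -0.11 without KO_214). Of 7 oligodendrocyte lineage markers 6 were lower by their means (median -0.73), but without KO_117, where Mbp was at 66.5 FPKM against 2234 FPKM in WT_116, the median was 0.40. Of 6 astrocyte markers 4 had a higher mean (median 0.40, and 0.02 without KO_214), and of 6 markers of neuroblasts and neurons 3 did (median -0.09). By limma, 0 of the marker genes had an unadjusted p under 0.05. The part of other cells in the values of the members was not tested.

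**Figure D3:**
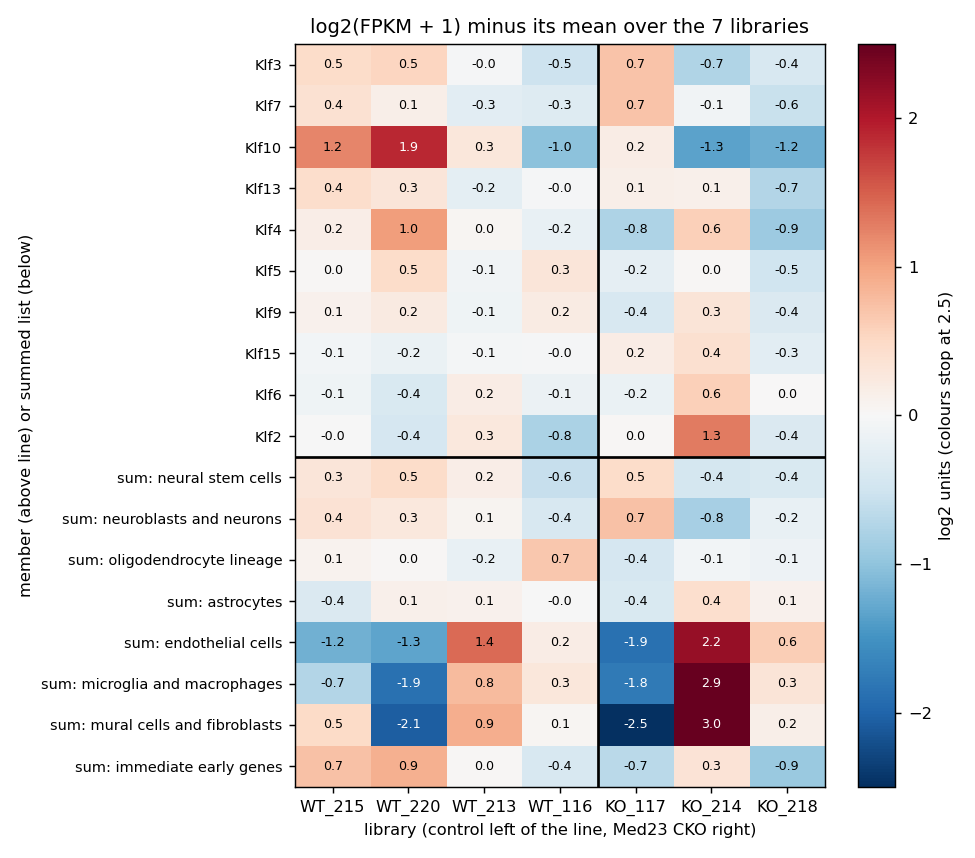
Heat map of log2(FPKM + 1) minus its mean over the 7 libraries, for the 10 members (above the line) and for summed marker and immediate early lists (below it). KO_214 is red for Klf2, Klf6 and the endothelial, microglial and mural sums, and WT_215 and WT_220 are red for Klf10 and the immediate early sum.

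The mouse numbers of the labels start with 1 in WT_116 and KO_117 and with 2 in the other 5 libraries, and the labels do not say what the digit stands for. Differences were therefore taken within each set. For Klf10, KO_117 was above WT_116 by 1.21 on the log2 scale, whereas among numbers starting with 2 the Med23 CKO mean was lower by 2.41 (-2.41 ± 0.46 SE, limma unadjusted p = 0.00167, adjusted p = 0.370). Klf3 gave 1.24 and -0.89 ± 0.26 (limma unadjusted p = 0.0126, adjusted p = 0.370), so that 2 of 10 members were lower at an unadjusted p under 0.05 (background 9.71%). Thus both genes went in opposite directions in the sets, as did 5 of the 10 members in all. The share of all genes tested with opposite signs was not computed, so this count is not a result about the members. Among numbers starting with 2, Klf3 and Klf10 were the 2 of 10 members whose Med23 CKO values all lay below the controls (background 23.9%), with 0 above (background 11.7%). The other 5 had one sign in both sets, lower for Klf4 (-0.60 in the pair and -0.56 ± 0.53 in the others), Klf5 (-0.53 and -0.38) and Klf9 (-0.61 and -0.10), and higher for Klf2 (0.82 and 0.52) and Klf15 (0.22 and 0.17). The pair has 1 library per group and so no test.

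**Figure D4:**
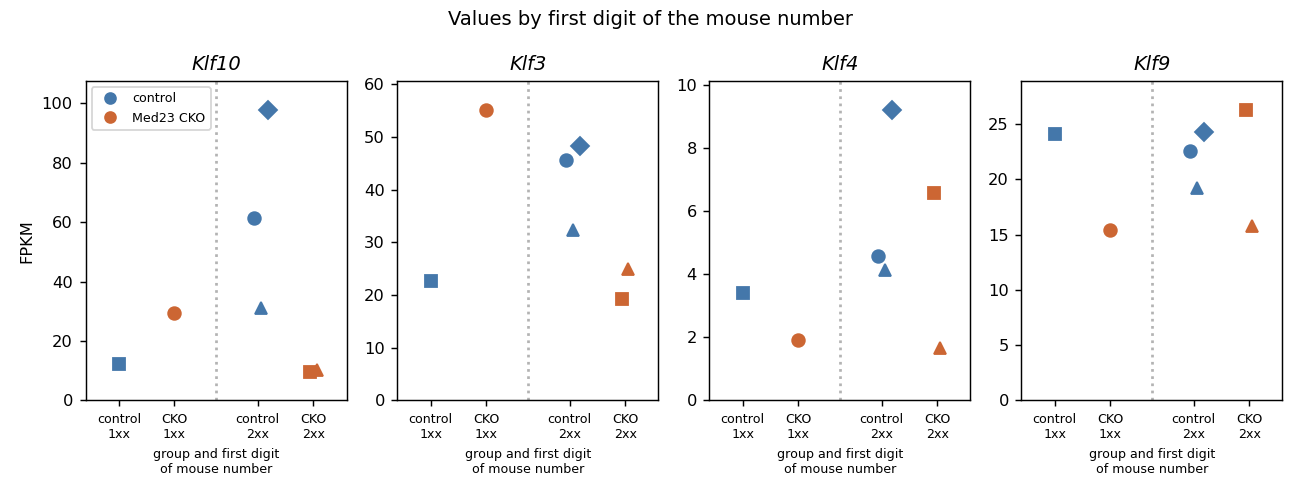
FPKM of Klf10, Klf3, Klf4 and Klf9 by group (control in blue, Med23 CKO in orange) and by the first digit of the mouse number, 1 point per library. Klf10 and Klf3 are higher in KO_117 than in WT_116 and lower in KO_214 and KO_218 than in WT_215, WT_213 and WT_220.

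The genes that feed into the family, or act beside it, gave few differences. Of 16 other Klf and Sp genes listed, 10 were tested, with 0 of 10 past an unadjusted p of 0.05, 3 means higher and 7 lower (6 higher and 4 lower without KO_214, and likewise without KO_218). The ones with the highest levels were Sp3 and Sp1, which bind the same GC boxes. Sp3 was at 25.0, 22.3, 25.5 and 18.3 FPKM in controls and 26.6, 24.7 and 28.4 FPKM in Med23 CKO, a difference of 0.22 ± 0.17. Sp1 was at 18, 13.2, 16.9 and 15.8 FPKM and at 17.5, 12.4 and 13.7 FPKM, a difference of -0.13 ± 0.19. Both groups overlapped for either gene. The corepressors and modifiers of the factors (13 tested, median difference -0.04), ERK5, MEF2 and serum response factors (10, median -0.09), and steroid and thyroid receptors (4, median 0.20) each had 0 genes past an unadjusted p of 0.05, as did 10 glucocorticoid response genes (7 means higher, median 0.15) and 16 genes reported as Klf targets (12 means higher, median 0.23). The direction of these last lists depended on single libraries. Without KO_214, 5 of 10 glucocorticoid response genes had a higher mean (median -0.14) and 3 of 16 reported targets (median -0.25). Without the control WT_220 the counts were 5 of 10 (median -0.04) and 9 of 16 (median 0.06). The medians of the corepressors and of the ERK5 group also changed sign, to 0.07 and 0.09, without KO_218. That of the corepressors did so as well without KO_214 (0.06) and without WT_215 (0.03).

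Of 11 genes of TGF-beta and LIF signaling, which induce Klf10 and Klf4 in other cells, 1 passed an unadjusted p of 0.05. This was Tgfbr1, the type I TGF-beta receptor, at 12.1, 9.62, 10.4 and 8.03 FPKM in controls and 14.2, 15.1 and 14.8 FPKM in Med23 CKO. Every Med23 CKO library was above every control (0.784% of genes tested were above in this way, and 0.502% were higher at an unadjusted p under 0.05). The difference was 0.52 ± 0.19 (limma unadjusted p = 0.0244, adjusted p = 1, exact permutation p = 0.0571), so it did not pass the adjusted threshold. With 1 library left out its limma unadjusted p ran from 0.0227 to 0.0575. Of 13 immediate early genes, which share fast induction with Klf10 and Klf4, 12 means were lower (median -0.42), beside 7955 of the 14151 genes tested. Egr1 and Nr4a1 had a limma unadjusted p under 0.05 (2 of 13, background 0.996% lower). The study had already named both, with Egr2 and Fos, among its downregulated genes from this series. The list was chosen with earlier results of these data known, so its counts are no independent support. Nr4a1, a nuclear receptor, was at -1.24 ± 0.42 and below all controls, and Egr1, a zinc finger factor, at -2.20 ± 0.86 with groups that overlapped. With 1 library left out, the limma unadjusted p reached 0.0767 for Nr4a1 (without KO_218) and 0.117 for Egr1 (without KO_117), and between 9 and 13 of the 13 means were lower. The summed FPKM of this list was 407, 187, 252 and 458 in controls and 154, 311 and 128 in Med23 CKO. Like Klf10 it was highest in WT_215 and WT_220, but KO_214, where Klf10 was at its lowest, had a sum above 2 of the 4 controls.

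For the members with the smallest unadjusted p, the tested genes of most similar pattern over the 7 libraries were taken by the mean absolute difference of centred log2(FPKM + 1). For Klf10 these were Lor (0.162), which encodes an epidermal barrier protein, Akap12 (0.172), a scaffold protein of kinase A, and Gareml (0.181). Akap12 was at 174, 30.6, 96.7 and 226 FPKM in controls and at 55.9, 23.3 and 29.0 FPKM in Med23 CKO, with WT_220 and WT_215 the highest as for Klf10. For Klf5 they were 1110004E09Rik (0.0895), Asna1 (0.0929) and Zfp688 (0.0937). With a pseudocount of 0.1, 2 of these 6 genes were chosen again.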

How the data were processed

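RNA-seq was analysed in 7 libraries, 1 per mouse, from 4 control and 3 Med23 CKO mice, matched to groups by sample titles (0 columns without a sample). The study's text gives n = 3 for both groups without naming its control mice, so a control used here may lie outside its comparison. The authors aligned reads to mm10 with Tophat at default settings after adapter removal and calculated FPKM with Cuffdiff, and these deposited FPKM values were used. Group means, fold changes and p-values in the deposited table were not used. No counts were used and low values gave no whole reads, so depth is unknown and precision is set by how many libraries there were.

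Genes averaging 0.5 FPKM or more over the libraries (14151) were kept and taken as log2(FPKM + 1). Groups were compared by limma 3.58.1 in R 4.3.3 (lmFit, eBayes with trend), two-sided, with Benjamini-Hochberg adjustment over all genes tested. Single genes were compared by an exact permutation test over 35 splits, two-sided. A difference understates the change of low genes. The fit was tested on simulated data. Tables were made in Python 3.11.15 with numpy 2.4.6 and pandas 2.3.3. Members and gene lists were chosen with earlier results of these data known. Named were all members, Med23, listed genes with an unadjusted p under 0.05, the 2 most expressed other Klf and Sp genes, and the 3 genes of most similar pattern for each of 2 members, with values by library for Akap12 chosen after they were seen. Coordinates are from GENCODE M21 and promoters from RefSeq, both on GRCm38 (mm10). Alternatives were a pseudocount of 0.1, no filter, a filter at 1 FPKM, median centring, quantile normalization, no trend, robust empirical Bayes, array weights, mouse numbers split by their first digit (covariate or selection), each library left out and, chosen after seeing the data, Xist as a covariate.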

Additional observations from a re-analysis of the deposited data

How the results depend on the processing

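Of 189 alternatives over the 10 members, 49 alter the test and leave the difference as it was. Of the other 140, 131 kept the direction and 9 turned it. None of the 189 passed the adjusted threshold (lowest adjusted p 0.370, limma). Klf4, Klf5, Klf6, Klf9 and Klf10 turned under none. Array weights gave -0.073 for Klf2, -0.38 for Klf7 and -0.081 for Klf15, and mouse numbers starting with 2 gave -0.42 for Klf7. With 1 library left out, Klf3 ranged from -0.68 to 0.054, Klf7 from -0.32 to 0.32 and Klf13 from -0.41 to 0.021, and, with no change of sign, Klf2 from 0.071 to 0.90, Klf4 from -1.10 to -0.35, Klf5 from -0.54 to -0.28, Klf6 from 0.025 to 0.41, Klf9 from -0.50 to -0.13, Klf10 from -1.92 to -0.95 and Klf15 from 0.047 to 0.37. The count of members lower at an unadjusted p under 0.05, 0 with all libraries, was 4 with array weights (background 6.27%), 2 with mouse numbers starting with 2 (background 9.71%) and 0 to 2 with 1 library left out (1 without KO_117, background 2.9%, or without WT_116, background 1.43%, and 2 without KO_214, background 1.45%). The causes were not tested. Ordered by the mean over 7 libraries, 5 of 10 members kept their place, and a pseudocount of 0.1 kept 2 of 6 genes of similar pattern. Klf5 has no value with a mean FPKM of at least 1. No paired analysis was made, since the sample titles give no litter, although the study's methods describe controls as littermates. With 7 libraries, the 95% intervals leave changes of over 1 log2 unit possible for Klf2, Klf3, Klf4 and Klf10, and a pseudocount of 0.1 gave -0.86 ± 0.47 for Klf5.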

Other observations

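Sp8, a zinc finger factor of the Sp family known in the brain for interneurons of the olfactory bulb, was under the filter on low values and was chosen for mention after its values were seen. Its levels were between 0.0573 and 0.297 FPKM in the 4 controls and between 0.603 and 0.960 FPKM in the 3 Med23 CKO libraries, so that every Med23 CKO library was above every control, as were 0.628% of the 24346 genes without a filter. The difference was 0.56 ± 0.10 in log2(FPKM + 1) (SE, exact permutation p = 0.0286, the smallest possible). By limma without a filter the unadjusted p was 0.00146 and the adjusted p 1, so it did not pass the threshold over all genes.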
